A study of Mus musculus with 14 samples.

Results

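The 35 genes described here encode the proteins that carry glucose into the cell, break it down to pyruvate, turn pyruvate into lactate or pass it to the mitochondrion, and control these steps. They were taken by gene symbol and not by a cutoff on a measured value, but the list was chosen with earlier results of these data known. They are 35 of the 41204 genes in the RNA-seq table. Poly(A) RNA of mouse embryonic stem cells (ESCs) from a cross labelled C57BL/6(F) x 129/sv(M) was sequenced in 4 groups of 2 samples. Wild-type and *Trincr1*-/- ESCs were compared, each in 2i + LIF and in PD + LIF. 2i + LIF is N2B27 medium with the MEK inhibitor PD0325901 (PD) at 1 µM, the GSK3 inhibitor CHIR99021 at 3 µM and leukemia inhibitory factor (LIF) at 1000 units per ml. For PD + LIF, cells were kept for 24 h in 2i + LIF and then for 4 days without CHIR99021, so that all groups received PD and LIF. Trincr1 is a long noncoding RNA that binds the RNA-binding protein TRIM71, and a pair of guide RNAs removed every exon of it but the first. A pulldown of FLAG-tagged TRIM71 from ESCs that overexpressed it in 2i + LIF is described after the RNA-seq. The sources used here do not state how many clones the *Trincr1*-/- samples came from or whether the 2 samples of a group were separate cultures, so p-values measure the spread between these samples, which may be technical.

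Glycolysis yields ATP and building blocks without oxygen, and ESCs are known for running it at a high rate. Pyruvate, its end product, is either reduced to lactate and exported or carried into the mitochondrion, where pyruvate dehydrogenase feeds it to the citric acid cycle and pyruvate dehydrogenase kinases hold that enzyme back. Most steps are served by several isozymes from separate genes, so the level of a step and the share of each isozyme in it can change apart from each other.

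*Gm2694*, the gene of Trincr1, was lower in *Trincr1*-/- than in wild-type samples in both media. It was at 5.70 and 9.45 FPKM in wild-type and at 0.0754 and 0 FPKM in *Trincr1*-/- ESCs in 2i + LIF, and at 6.18 and 6.56 against 1.38 and 0.746 FPKM in PD + LIF. Some signal thus remained in *Trincr1*-/- ESCs, with a mean of 1.06 FPKM in PD + LIF and 0.0377 FPKM in 2i + LIF. Its source was not tested. FPKM counts fragments scaled to transcript length and to sequencing depth. The spacing of the lowest FPKM values put that depth between 10.2 M and 14.0 M fragments per sample (M, mega). All 13 genes listed as markers of naive ESCs were above 1 FPKM in every sample. They include *Pou5f1* and *Sox2*, pluripotency factors that are not particular to the naive state. The summed level of the 13 was 2062 to 2122 FPKM in the 4 samples in 2i + LIF, 1484 to 1533 FPKM in wild-type ESCs in PD + LIF and 1158 to 1202 FPKM in *Trincr1*-/- ESCs in PD + LIF. The 7 markers of formative and primed epiblast summed to 57.4 to 62.4, 142 to 163 and 217 to 240 FPKM in the same order. Both lists therefore moved along with the medium and genotype differences below, and their part in those was not tested. Markers of other cell types were lower and also moved with the medium. From 2i + LIF to PD + LIF, the sums went from between 6.76 and 8.14 to between 27.9 and 38.1 FPKM for 5 neural markers, from between 16.6 and 23.0 to between 40.7 and 53.9 FPKM for 6 trophoblast markers, and from between 1.35 and 2.14 to between 5.64 and 10.3 FPKM for 8 endoderm markers. The 6 mesoderm markers went from between 7.84 and 8.13 to between 2.98 and 4.41 FPKM. The 7 fibroblast markers, which would show feeder cells, went from between 0.556 and 1.35 to between 4.14 and 6.40 FPKM, and *Col3a1*, *Dcn*, *Lum* and *Postn* were listed at 0 in at least 1 sample. The part of these cell types in the medium differences was not tested. In bulk RNA, fewer cells of a type and less RNA per cell cannot be told apart.

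All 35 genes passed the minimum, an average over 0.2 FPKM across samples, and entered the test, limma on log2(FPKM + 1) over 15430 genes. They ranged from 1.41 FPKM for *Pfkfb4* to 2944 FPKM for *Gapdh*, which was the gene at rank 5 of the whole table. Together they made up 1.58% to 1.74% of the summed FPKM in the 4 samples in 2i + LIF and 2.01% to 2.202% in the 4 samples in PD + LIF, without overlap. In every medium and genotype *Gapdh* was the largest part, 34.99% to 35.8% of the summed level of the 35 genes in 2i + LIF and 26.1% to 27.7% in PD + LIF. In all, 11 genes of the list, which are *Eno1*, *Gapdh*, *Gpi1*, *Ldha*, *Ldhb*, *Mpc1*, *Pdhb*, *Pfkfb2*, *Pgam1*, *Pgk1* and *Tpi1*, have a stretch of at least 100 bases repeated elsewhere in NCBIM37 at 95% identity or more, so their reads could be split between copies.

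Withdrawal of CHIR99021 moved most of the list, and mainly upwards. In wild-type ESCs, 20 of the 35 genes rose and 5 fell, against a background of 30.9% of all tested genes higher and 21.3% lower (limma, adjusted p under 0.05). In *Trincr1*-/- ESCs, 18 rose and 4 fell, against 29.6% and 20.3% of all genes. Thus 57.1% of the list rose in wild-type and 51.4% in *Trincr1*-/- ESCs. The median log2 change was 0.42 in wild-type and 0.28 in *Trincr1*-/- ESCs, beside 0.08 and 0.07 over all genes. In the list, 16 genes rose in both genotypes, 3 fell in both, and none was called in opposite directions. How often all genes had the same call in both genotypes was not counted, so this agreement is not shown to be particular to the list. Under quantile normalization the median over all genes became -0.02 in wild-type and -0.04 in *Trincr1*-/- ESCs and the calls over all genes turned from 4765 higher and 3283 lower to 3803 and 3946 in wild-type ESCs, and from 4572 and 3136 to 3578 and 3838 in *Trincr1*-/- ESCs, while the list had 22 higher and 6 lower in wild-type and 19 and 6 in *Trincr1*-/- ESCs.

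Loss of Trincr1 changed 13 of the 35 genes in PD + LIF, 7 upwards and 6 downwards, beside 6.29% of all genes higher and 5.77% lower. In 2i + LIF, *Slc2a3* rose and *Pdk1* fell, or 1 gene each way, beside 0.35% and 0.855% of all genes. The genotype effect itself differed between the media for 2 genes, 1 in each direction, beside 0.992% of all genes with a higher and 0.817% with a lower effect in PD + LIF. These genotype calls depended on single libraries. In PD + LIF the counts were 1 higher and 0 lower without wild-type replicate 1 or without *Trincr1*-/- replicate 1 of that medium, 6 and 1 without wild-type replicate 2, and 4 and 2 without *Trincr1*-/- replicate 2. *Slc2a1* alone kept its call in PD + LIF under all 17 alternatives, whereas the calls in 2i + LIF and those on the difference between media were lost without any 1 of the 8 libraries. Of the 25 calls on the medium in wild-type ESCs, 23 held under every alternative, and of the 22 in *Trincr1*-/- ESCs, 20 did.

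**Figure D1:**
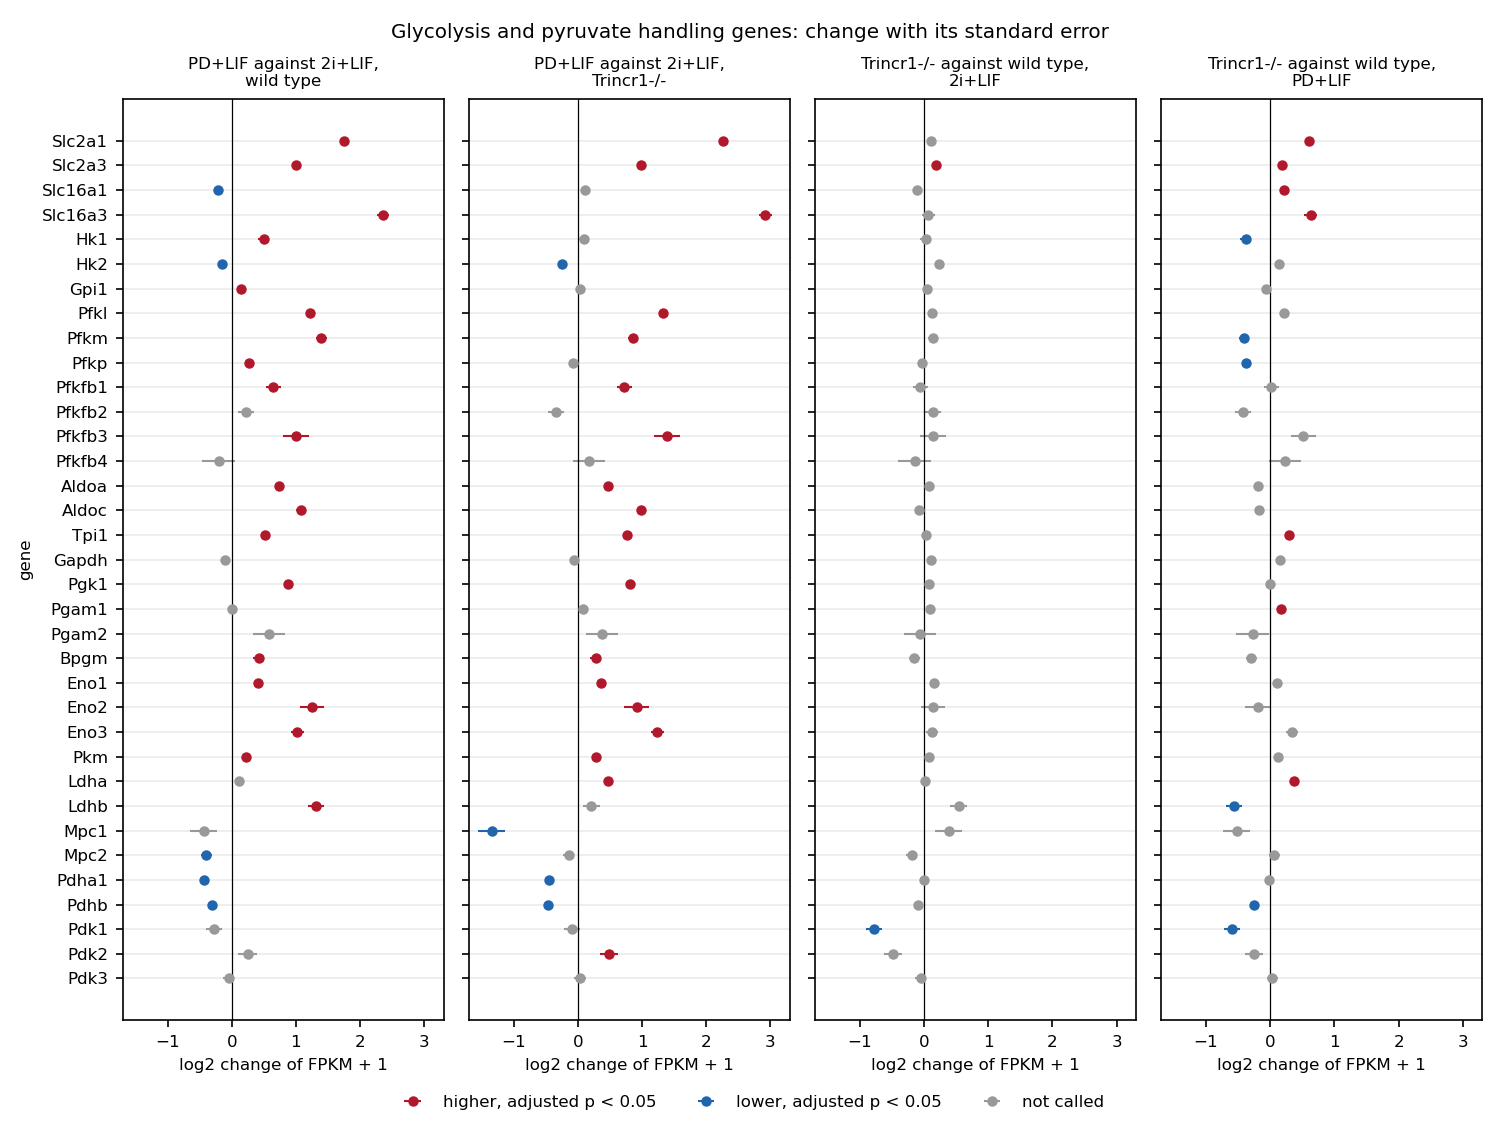
Log2 change of FPKM + 1 (x axis) of the 35 genes (y axis) for PD + LIF against 2i + LIF in each genotype and for *Trincr1*-/- against wild-type ESCs in each medium, with the standard error from limma as bars and colours for calls at an adjusted p under 0.05. *Slc2a1* and *Slc16a3* lie farthest to the right in the 2 medium panels and in the PD + LIF genotype panel, and nearly all genes lie near 0 in the 2i + LIF genotype panel.

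*Slc16a3* and *Slc2a1*, which encode a transporter at either end of the pathway, had the largest log2 changes with the medium. *Slc2a1*, on chromosome 4 from 119108710 to 119137330 in GRCm38, encodes the glucose transporter GLUT1. It was at 80.7 and 74.8 FPKM in wild-type and 82.1 and 84.8 FPKM in *Trincr1*-/- ESCs in 2i + LIF. In PD + LIF it was at 253 and 277 FPKM in wild-type and 412 and 396 FPKM in *Trincr1*-/- ESCs. Samples in PD + LIF were thus all above those in 2i + LIF, and in PD + LIF the *Trincr1*-/- samples were above the wild-type ones. Between the media *Slc2a1* rose by 1.75 on the log2 scale in wild-type (standard error 0.06, limma adjusted p = 4.28e-06) and by 2.26 in *Trincr1*-/- ESCs (limma adjusted p = 1.64e-06). *Trincr1*-/- exceeded wild type by 0.61 in PD + LIF (limma adjusted p = 0.00279), while the 0.10 in 2i + LIF was not called (adjusted p = 0.494). The 2 genotype effects differed by 0.51 (standard error 0.08, limma adjusted p = 0.0368), a call kept under 5 of 16 alternatives.

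*Slc2a3*, which encodes the high-affinity transporter GLUT3, was the more abundant of the pair in every sample. It was at 228 and 227 FPKM in wild-type and 257 and 262 FPKM in *Trincr1*-/- ESCs in 2i + LIF, and at 453 and 457 against 519 and 513 FPKM in PD + LIF. Replicates lay close together and no groups overlapped. The log2 change with the medium was 1.00 in wild-type and 0.99 in *Trincr1*-/- ESCs (standard error 0.03, limma adjusted p = 3.72e-06 and 2.20e-06). Its genotype change was small, 0.19 in 2i + LIF (adjusted p = 0.0419) and 0.18 in PD + LIF (adjusted p = 0.0144), and it was the single gene of the list called higher in *Trincr1*-/- ESCs in both media. The share of *Slc2a1* in the summed FPKM of this pair was 25.4% ± 0.970 in wild-type and 24.3% ± 0.159 in *Trincr1*-/- ESCs in 2i + LIF and 36.7% ± 1.34 and 43.9% ± 0.459 in PD + LIF (SD, n = 2 each).

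*Slc16a3* and *Slc16a1* encode the proton-coupled monocarboxylate transporters MCT4 and MCT1, of which MCT4 is best known for exporting lactate. *Slc16a3* (chromosome 11, 120948479 to 120960868, GRCm38) was at 13.0 and 13.9 FPKM in wild-type and 14.6 and 13.6 FPKM in *Trincr1*-/- ESCs in 2i + LIF. In PD + LIF it was at 68.0 and 78.2 against 124 and 104 FPKM. This was the largest medium change of the 35 genes in both genotypes, a log2 change of 2.36 in wild-type (standard error 0.10, limma adjusted p = 7.32e-06) and 2.92 in *Trincr1*-/- ESCs (adjusted p = 2.58e-06), or group means 5.44 and 8.06 times as high. In PD + LIF it was higher in *Trincr1*-/- ESCs by 0.63 (adjusted p = 0.0113), and the difference between its genotype effects, 0.56, missed the threshold (adjusted p = 0.0971).

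*Slc16a1* behaved otherwise. It was at 38.9 and 38.3 FPKM in wild-type and 35.1 and 36.5 FPKM in *Trincr1*-/- ESCs in 2i + LIF, and at 33.5 and 32.5 against 37.6 and 39.5 FPKM in PD + LIF. It fell by 0.22 on the log2 scale with the medium in wild-type ESCs (limma adjusted p = 0.00927), and its log2 change of 0.10 in *Trincr1*-/- ESCs was not called (adjusted p = 0.134). In PD + LIF it was higher in *Trincr1*-/- ESCs by 0.22 (adjusted p = 0.0373). *Slc16a3* accounted for 25.8% ± 1.03 of the summed FPKM of the pair in wild-type ESCs in 2i + LIF and for 68.8% ± 2.61 in PD + LIF (SD, n = 2 each), so that the more abundant gene of the pair changed. In *Trincr1*-/- ESCs the shares were 28.3% ± 1.56 and 74.6% ± 2.97.

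**Figure D2:**
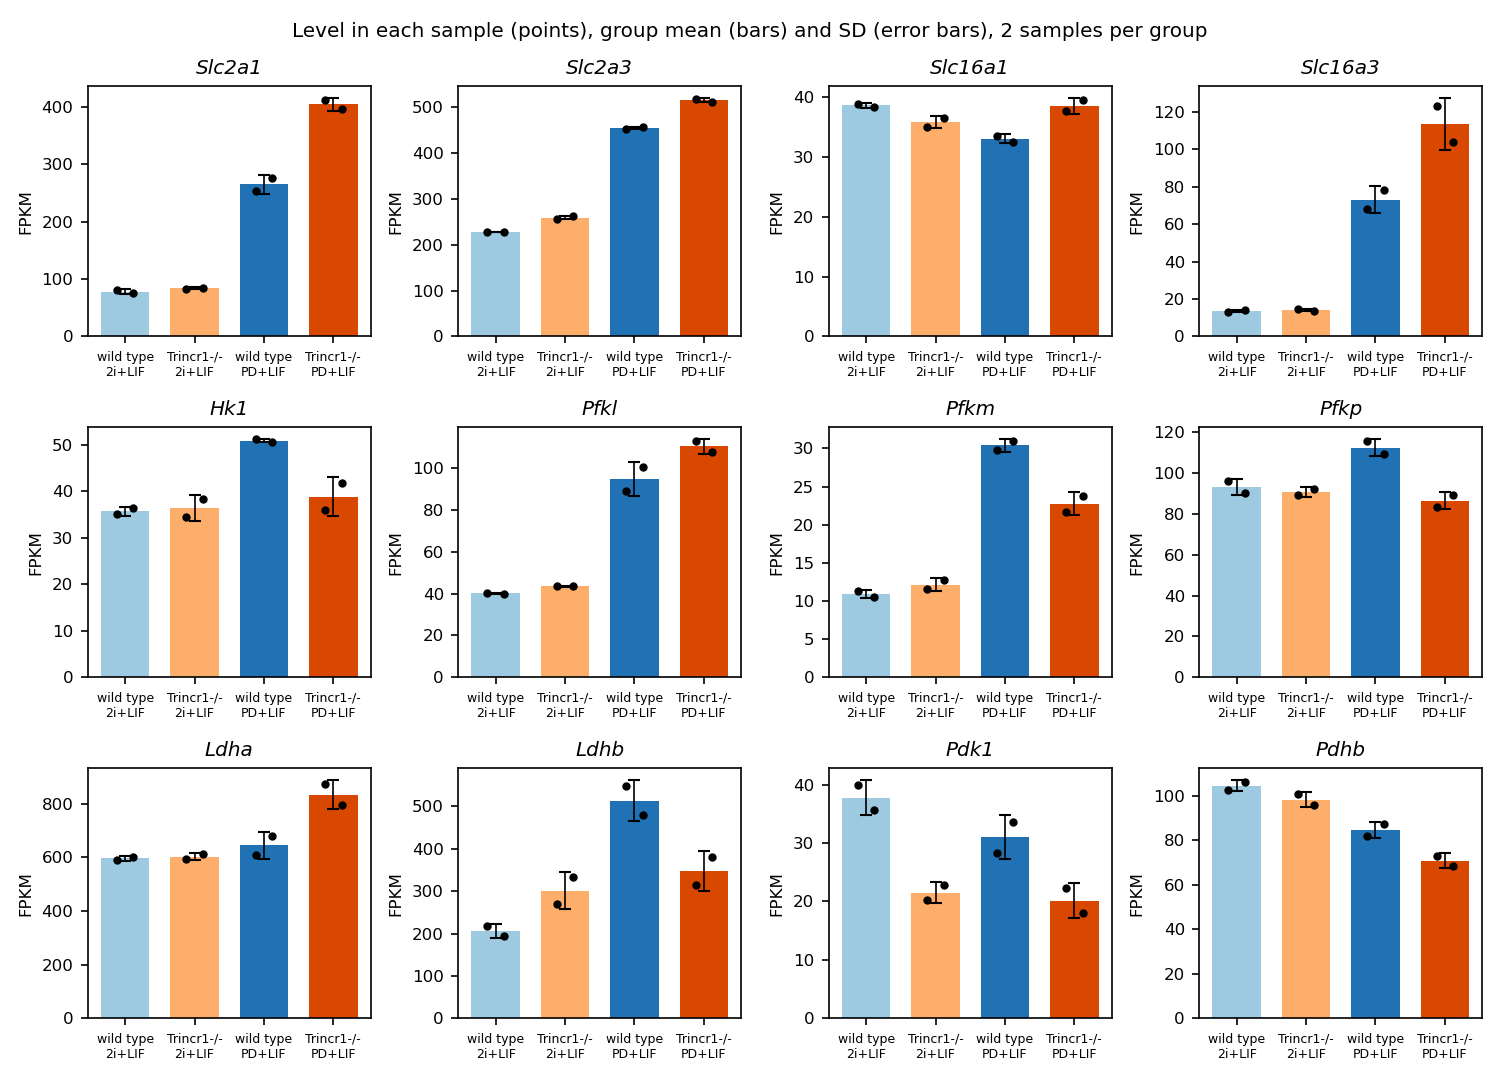
FPKM (y axis, from 0) of 12 genes in the 4 groups (x axis), with points for the 2 samples, bars for group means and error bars for the SD. *Slc2a1*, *Slc2a3*, *Slc16a3* and *Pfkl* stand higher in all PD + LIF samples than in any 2i + LIF sample, and *Pdk1* stands lower in all *Trincr1*-/- samples than in any wild-type sample.

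Among the 13 genes from hexokinase to triose phosphate isomerase, with the regulators of phosphofructokinase, 10 rose and 1 fell with the medium in wild-type ESCs. The shares of all genes were 30.9% and 21.3%. In *Trincr1*-/- ESCs, 7 rose and 1 fell, beside 29.6% and 20.3% of all genes. Hexokinases trap glucose in the cell as glucose 6-phosphate. *Hk2* was the more abundant isozyme, at 69.7 and 70.7 FPKM in wild-type and 80.5 and 84.4 FPKM in *Trincr1*-/- ESCs in 2i + LIF, and at 62.4 and 63.6 against 70.5 and 68.5 FPKM in PD + LIF. It fell by 0.15 on the log2 scale in wild-type (limma adjusted p = 0.0206) and by 0.24 in *Trincr1*-/- ESCs (adjusted p = 0.00302). The call in wild-type ESCs was lost under 5 of 17 alternatives, with adjusted p from 0.00755 to 0.137, among them those without either wild-type replicate in 2i + LIF or without wild-type replicate 1 in PD + LIF. *Hk1* was at 35.01 and 36.4 FPKM in wild-type and 34.4 and 38.4 FPKM in *Trincr1*-/- ESCs in 2i + LIF, and at 51.1 and 50.6 against 35.9 and 41.8 FPKM in PD + LIF. The wild-type samples in PD + LIF stood above all others. *Hk1* rose by 0.50 in wild-type ESCs (adjusted p = 0.00199), its 0.09 in *Trincr1*-/- ESCs was not called (adjusted p = 0.404), and in PD + LIF it was lower in *Trincr1*-/- ESCs (log2 change -0.38, adjusted p = 0.0293).

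*Gpi1* encodes glucose-6-phosphate isomerase and varied little. It was at 275 and 274 FPKM in wild-type and 276 and 290 FPKM in *Trincr1*-/- ESCs in 2i + LIF, and at 292 and 316 against 296 and 283 FPKM in PD + LIF. Its rise of 0.14 in wild-type ESCs (limma adjusted p = 0.0450) was lost under 12 of 17 alternatives, with adjusted p from 0.000751 to 0.228.

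Phosphofructokinase commits sugar to glycolysis, and 3 genes encode it. *Pfkl*, the liver-type isozyme, was at 40.2 and 40.0 FPKM in wild-type and 43.7 and 43.4 FPKM in *Trincr1*-/- ESCs in 2i + LIF. In PD + LIF it was at 88.9 and 100 against 113 and 108 FPKM. The log2 rise was 1.22 in wild-type and 1.32 in *Trincr1*-/- ESCs (standard error 0.06, limma adjusted p = 1.30e-05 and 7.02e-06), and the genotype change of 0.22 in PD + LIF was not called (adjusted p = 0.0617). *Pfkm*, the muscle-type isozyme, was the least abundant. It was at 11.3 and 10.6 FPKM in wild-type and 11.5 and 12.7 FPKM in *Trincr1*-/- ESCs in 2i + LIF, and at 29.8 and 31.0 against 21.7 and 23.8 FPKM in PD + LIF. It rose by 1.40 in wild-type (adjusted p = 1.72e-05) and by 0.86 in *Trincr1*-/- ESCs (adjusted p = 0.000123), and in PD + LIF it was lower in *Trincr1*-/- ESCs (log2 change -0.40, adjusted p = 0.0213). *Pfkp*, the platelet-type isozyme, led in 2i + LIF at 96.0 and 90.3 FPKM in wild-type and 89.1 and 92.3 FPKM in *Trincr1*-/- ESCs. In PD + LIF it was at 115 and 109 against 83.4 and 89.3 FPKM. It rose by 0.27 in wild-type ESCs (adjusted p = 0.00520), its -0.07 in *Trincr1*-/- ESCs was not called (adjusted p = 0.324), and in PD + LIF it was lower in *Trincr1*-/- ESCs (-0.38, adjusted p = 0.00848).

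The makeup of the step changed with these. *Pfkp* held 64.6% ± 0.697 of the summed FPKM of the 3 genes in wild-type ESCs in 2i + LIF, 62.0% ± 0.318 in *Trincr1*-/- ESCs in 2i + LIF, 47.4% ± 2.73 in wild-type and 39.4% ± 1.53 in *Trincr1*-/- ESCs in PD + LIF (SD, n = 2 each). *Pfkl* went the other way, from 27.8% ± 0.800 and 29.8% ± 0.741 to 39.8% ± 2.64 and 50.3% ± 2.10, so that it led in *Trincr1*-/- ESCs in PD + LIF.

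**Figure D3:**
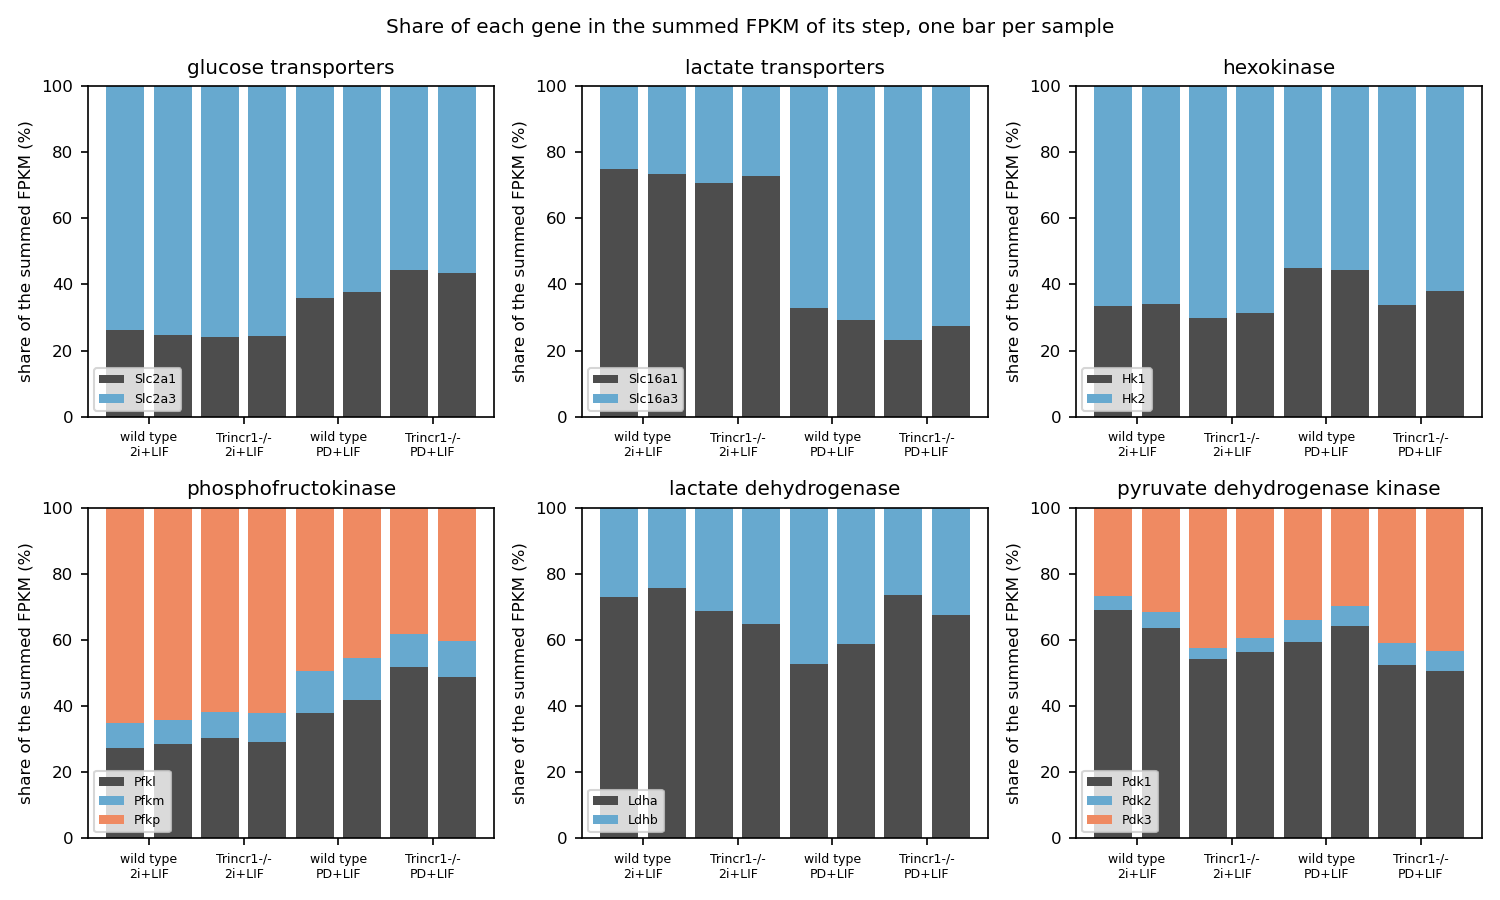
Share of each gene in the summed FPKM of its step (y axis, percent) in each of the 8 samples (x axis, 2 bars per group), for 6 steps. The lactate transporter bars change from mostly *Slc16a1* in 2i + LIF to mostly *Slc16a3* in PD + LIF, and the share of *Ldhb* is highest in the 2 wild-type samples in PD + LIF.

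The 4 *Pfkfb* genes encode the enzymes that make and remove fructose 2,6-bisphosphate, an activator of phosphofructokinase. *Pfkfb3*, whose isozyme favours making it, was at 2.01 and 2.41 FPKM in wild-type and 3.02 and 2.07 FPKM in *Trincr1*-/- ESCs in 2i + LIF, and at 4.44 and 6.58 against 8.88 and 7.55 FPKM in PD + LIF. Its log2 rise was 1.00 in wild-type (limma adjusted p = 0.00454) and 1.39 in *Trincr1*-/- ESCs (adjusted p = 0.00107). *Pfkfb1* was at 6.27 and 6.33 FPKM in wild-type and 5.93 and 6.10 FPKM in *Trincr1*-/- ESCs in 2i + LIF, and at 11.5 and 9.49 against 11.7 and 9.59 FPKM in PD + LIF. It rose by 0.65 and 0.72 in the respective genotypes (adjusted p = 0.00337 and 0.00215). *Pfkfb2* ranged from 3.17 to 5.35 FPKM and *Pfkfb4* from 0.847 to 1.88 FPKM over the 8 samples, and neither was called in any comparison. An estimated 31 to 70 fragments per sample stood behind *Pfkfb4*, which limits what could be detected there.

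Aldolase splits the hexose into trioses, and nearly all of its RNA was *Aldoa*, with a share of 98.5% to 99.0% in every sample. *Aldoa* was at 803 and 832 FPKM in wild-type and 847 and 876 FPKM in *Trincr1*-/- ESCs in 2i + LIF, and at 1302 and 1436 against 1231 and 1154 FPKM in PD + LIF. It rose by 0.74 in wild-type (limma adjusted p = 5.22e-05) and by 0.47 in *Trincr1*-/- ESCs (adjusted p = 0.000413). *Aldoc* was at 9.39 and 9.25 FPKM in wild-type and 8.52 and 8.95 FPKM in *Trincr1*-/- ESCs in 2i + LIF, and at 20.5 and 20.9 against 18.5 and 18.1 FPKM in PD + LIF. It rose by 1.07 and 0.99 (adjusted p = 2.26e-05 and 2.71e-05), with no overlap between media. *Tpi1* encodes triose phosphate isomerase, which interconverts the triose phosphates. It was at 243 and 240 FPKM in wild-type and 242 and 252 FPKM in *Trincr1*-/- ESCs in 2i + LIF, and at 331 and 360 against 434 and 409 FPKM in PD + LIF. It rose by 0.51 and 0.77 with the medium (adjusted p = 0.000202 and 3.12e-05) and was higher in *Trincr1*-/- ESCs by 0.29 in PD + LIF (adjusted p = 0.0165).

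Of the 9 genes from glyceraldehyde 3-phosphate to pyruvate, 6 rose with the medium in each genotype and 0 fell by limma. Over all genes, 30.9% rose and 21.3% fell in wild-type and 29.6% and 20.3% in *Trincr1*-/- ESCs. *Gapdh*, whose product oxidizes glyceraldehyde 3-phosphate and which often serves as a reference gene, ranged from 2649 to 3211 FPKM. Its log2 change with the medium was -0.11 in wild-type (adjusted p = 0.0542) and -0.07 in *Trincr1*-/- ESCs (adjusted p = 0.227), and under quantile normalization it was called at -0.10 and 0.08, so its direction in *Trincr1*-/- ESCs hung on the scaling. *Pgk1*, which encodes the ATP-forming phosphoglycerate kinase, was at 244 and 262 FPKM in wild-type and 270 and 261 FPKM in *Trincr1*-/- ESCs in 2i + LIF, and at 449 and 483 against 476 and 456 FPKM in PD + LIF. It rose by 0.88 and 0.81 (adjusted p = 2.18e-05 and 2.55e-05), and the genotypes overlapped in both media.

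*Pgam1* made up 98.2% to 99.5% of the summed FPKM of *Pgam1* and *Pgam2* in every sample. *Pgam1-ps2*, over a near-identical copy of *Pgam1*, was left out of that sum. Its mean was 10.59 FPKM, beside 157.4 FPKM for *Pgam1*. *Pgam1* was at 150 and 150 FPKM in wild-type and 157 and 163 FPKM in *Trincr1*-/- ESCs in 2i + LIF, and at 147 and 154 against 170 and 168 FPKM in PD + LIF. It was not called for the medium, and in PD + LIF it was higher in *Trincr1*-/- ESCs by 0.17 (limma adjusted p = 0.0387). *Pgam2* ranged from 0.783 to 2.74 FPKM, on an estimated 5 to 24 fragments per sample, and was not called. *Bpgm*, whose product makes the side product 2,3-bisphosphoglycerate, was at 8.89 and 9.98 FPKM in wild-type and 8.44 and 8.31 FPKM in *Trincr1*-/- ESCs in 2i + LIF, and at 13.6 and 12.3 against 10.4 and 10.3 FPKM in PD + LIF. It rose by 0.42 and 0.27 with the medium (adjusted p = 0.00555 and 0.0332), and the call in *Trincr1*-/- ESCs was lost without any 1 of the 4 *Trincr1*-/- libraries.

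Enolase and pyruvate kinase close the pathway. *Eno1* made up 96.9% to 98.5% of the summed FPKM of *Eno1*, *Eno2* and *Eno3*. *Eno1b*, which lies over a near-identical copy of *Eno1* and is not in the list, was left out of that sum. Its mean was 106.9 FPKM, beside 936.8 FPKM for *Eno1*. *Eno1* was at 757 and 777 FPKM in wild-type and 837 and 879 FPKM in *Trincr1*-/- ESCs in 2i + LIF, and at 985 and 1064 against 1129 and 1067 FPKM in PD + LIF. *Eno1* rose by 0.42 and 0.36 (limma adjusted p = 0.000440 and 0.000945). The minor isozymes had larger log2 changes. *Eno2*, the neuronal type, was at 2.79 and 1.504 FPKM in wild-type and 2.21 and 2.58 FPKM in *Trincr1*-/- ESCs in 2i + LIF, and at 6.12 and 6.56 against 5.08 and 5.78 FPKM in PD + LIF, which gave log2 changes of 1.25 and 0.92 (adjusted p = 0.00143 and 0.00625). *Eno3*, the muscle type, was at 9.88 and 10.8 FPKM in wild-type and 11.5 and 11.2 FPKM in *Trincr1*-/- ESCs in 2i + LIF, and at 19.8 and 24.4 against 27.5 and 28.6 FPKM in PD + LIF, with log2 changes of 1.02 and 1.24 (adjusted p = 0.000185 and 7.39e-05). *Pkm* encodes both splice forms of the muscle pyruvate kinase, which these gene values do not separate. It was at 1098 and 1084 FPKM in wild-type and 1110 and 1184 FPKM in *Trincr1*-/- ESCs in 2i + LIF, and at 1233 and 1322 against 1415 and 1373 FPKM in PD + LIF. Its rise was 0.23 and 0.28 (adjusted p = 0.00529 and 0.00204).

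At lactate dehydrogenase, *Ldhb* was with *Slc2a1* 1 of the 2 genes whose genotype effect was called different between the media. *Ldha* encodes the subunit that favours lactate and *Ldhb* the subunit that favours pyruvate. *Ldhb* (chromosome 6, 142490248 to 142507957, GRCm38) was at 219 and 195 FPKM in wild-type and 270 and 333 FPKM in *Trincr1*-/- ESCs in 2i + LIF, and at 548 and 480 against 315 and 382 FPKM in PD + LIF. *Trincr1*-/- samples thus lay above wild type in 2i + LIF and below it in PD + LIF. *Ldhb* rose by 1.31 with the medium in wild-type ESCs (standard error 0.13, limma adjusted p = 0.000187), and its 0.21 in *Trincr1*-/- ESCs, whose media overlapped, was not called (adjusted p = 0.221). The genotype changes were 0.54 in 2i + LIF, which was not called (adjusted p = 0.126), and -0.56 in PD + LIF (adjusted p = 0.0345). They differed by -1.10 (standard error 0.18, adjusted p = 0.0384). The call on this difference was kept under 5 of 16 alternatives, and the genotype call in PD + LIF under 6 of 17. A copy of 1285 bases elsewhere in NCBIM37 lies under *Gm5514*, which was listed at a mean of 5.36 FPKM.

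*Ldha* was at 590 and 602 FPKM in wild-type and 594 and 611 FPKM in *Trincr1*-/- ESCs in 2i + LIF, and at 609 and 681 against 872 and 795 FPKM in PD + LIF. The 2 *Trincr1*-/- samples in PD + LIF stood above the other 6. It rose by 0.47 with the medium in *Trincr1*-/- ESCs (limma adjusted p = 0.000790), its 0.11 in wild-type ESCs was not called (adjusted p = 0.178), and in PD + LIF it was higher in *Trincr1*-/- ESCs by 0.37 (adjusted p = 0.0142). The difference between its genotype effects, 0.35, missed the threshold (adjusted p = 0.0964). The summed level of both genes was 1158 and 1160 FPKM in wild-type and 1188 and 1176 FPKM in *Trincr1*-/- ESCs in PD + LIF, while the share of *Ldhb* was 44.4% ± 4.27 in the former and 29.5% ± 4.16 in the latter (SD, n = 2 each). In 2i + LIF that share was 25.7% ± 1.84 in wild-type and 33.3% ± 2.81 in *Trincr1*-/- ESCs.

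Of the 9 genes of pyruvate and lactate handling, 1 rose and 3 fell with the medium in wild-type ESCs, beside 30.9% and 21.3% of all genes. In *Trincr1*-/- ESCs, 2 rose and 3 fell, beside 29.6% and 20.3%. With 9 genes these counts do not set the step apart from all genes. *Pdha1* and *Pdhb* encode the subunits of the first enzyme of the pyruvate dehydrogenase complex. *Pdha1* was at 98.4 and 103 FPKM in wild-type and 103 and 98.9 FPKM in *Trincr1*-/- ESCs in 2i + LIF, and at 72.1 and 77.1 against 73.6 and 74.1 FPKM in PD + LIF. It fell by 0.43 in wild-type and by 0.44 in *Trincr1*-/- ESCs (limma adjusted p = 0.000360 and 0.000301). *Pdhb* was at 103 and 106 FPKM in wild-type and 101 and 95.8 FPKM in *Trincr1*-/- ESCs in 2i + LIF, and at 82.1 and 87.3 against 73.1 and 68.4 FPKM in PD + LIF. It fell by 0.30 and by 0.47 with the medium (adjusted p = 0.00291 and 0.000382), and in PD + LIF it was lower in *Trincr1*-/- ESCs (log2 change -0.26, adjusted p = 0.0279).

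*Mpc1* and *Mpc2* encode the carrier that takes pyruvate across the inner mitochondrial membrane. *Mpc1* was at 7.81 and 12.4 FPKM in wild-type and 11.4 and 15.1 FPKM in *Trincr1*-/- ESCs in 2i + LIF, and at 7.59 and 6.49 against 4.35 and 4.82 FPKM in PD + LIF. It fell by 1.34 in *Trincr1*-/- ESCs (limma adjusted p = 0.00153), and its -0.44 in wild-type ESCs was not called (adjusted p = 0.120). *Mpc2* was at 12.4 and 13.0 FPKM in wild-type and 11.7 and 10.3 FPKM in *Trincr1*-/- ESCs in 2i + LIF, and at 9.53 and 9.24 against 9.58 and 10.1 FPKM in PD + LIF. Here the wild-type change was called, a fall by 0.40 (adjusted p = 0.00621), and the -0.14 in *Trincr1*-/- ESCs was not (adjusted p = 0.205). The difference between the genotypes in the medium effect was called for neither gene (adjusted p = 0.164 and 0.306).

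*Pdk1*, on chromosome 2 from 71873223 to 71903858 in GRCm38, encodes a kinase that inactivates pyruvate dehydrogenase, and it was the single gene of the list called lower in *Trincr1*-/- ESCs in both media. It was at 39.9 and 35.6 FPKM in wild-type and 20.3 and 22.8 FPKM in *Trincr1*-/- ESCs in 2i + LIF, and at 28.4 and 33.7 against 22.3 and 18.0 FPKM in PD + LIF. All 4 *Trincr1*-/- samples lay below all 4 wild-type samples. The log2 change with genotype was -0.78 in 2i + LIF (limma adjusted p = 0.0393, standard error 0.13) and -0.60 after the switch to PD + LIF (adjusted p = 0.0267), and these did not pass the test of a difference (0.18, adjusted p = 0.630). *Pdk1* was not called for the medium. *Pdk2* was at 2.36 and 2.64 FPKM in wild-type and 1.29 and 1.72 FPKM in *Trincr1*-/- ESCs in 2i + LIF, and at 3.15 and 3.14 against 2.85 and 2.16 FPKM in PD + LIF. It rose by 0.48 with the medium in *Trincr1*-/- ESCs (adjusted p = 0.0274), a call lost under 5 of 17 alternatives, among them those without *Trincr1*-/- replicate 1 of either medium. *Pdk3* ranged from 15.4 to 17.8 FPKM and was called nowhere. *Pdk3* held 29.2% ± 3.51 of the summed FPKM of the 3 kinases in wild-type and 41.0% ± 2.07 in *Trincr1*-/- ESCs in 2i + LIF, and 32.0% ± 3.03 and 42.1% ± 1.80 in PD + LIF (SD, n = 2 each).

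Genes of related pathways were counted in the same fit, and their counts are read against the same shares of all genes, 30.9% higher and 21.3% lower with the medium in wild-type and 29.6% and 20.3% in *Trincr1*-/- ESCs. Of 21 other tested genes of glycolysis and pyruvate metabolism, 5 rose and 5 fell with the medium in wild-type ESCs and 2 rose and 7 fell in *Trincr1*-/- ESCs. The most lowered was *Pdp2*, a phosphatase that reactivates pyruvate dehydrogenase, with a mean of 22.5 FPKM in 2i + LIF and 8.26 FPKM in PD + LIF in wild-type ESCs (log2 change -1.35, limma adjusted p = 9.9e-05). The most raised in wild-type ESCs was *Pdk4*, a further pyruvate dehydrogenase kinase, from 0.756 to 3.52 FPKM (1.36, adjusted p = 0.000268). In PD + LIF *Pdk4* was lower in *Trincr1*-/- ESCs, at 1.23 FPKM (-1.02, adjusted p = 0.00839), as was *Pdk1*. Of 20 citric acid cycle genes, 4 rose and 9 fell in wild-type and 2 rose and 12 fell in *Trincr1*-/- ESCs with the medium, and loss of Trincr1 in PD + LIF lowered 5 and raised 0 of them (5.77% and 6.29% of all genes), with *Idh2* going from a mean of 133 FPKM to 102 FPKM (-0.38, adjusted p = 0.0118). Of 9 pentose phosphate genes, 2 rose and 3 fell in wild-type ESCs and 3 rose and 4 fell in *Trincr1*-/- ESCs. The wild-type counts of the pentose phosphate genes and of the other glycolysis and pyruvate genes were near the shares of all genes.

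Another list held 21 tested genes of the response to low oxygen outside glycolysis, its oxygen sensors and transcription factors included. Of these, 12 rose and 4 fell with the medium in each genotype. The median log2 change was 0.61 in wild-type and 0.65 in *Trincr1*-/- ESCs. These genes were listed with earlier results known, so the counts are a description. *Bnip3*, a mitophagy receptor, went from a mean of 7.31 to 75.2 FPKM in wild-type ESCs (3.20, limma adjusted p = 5.41e-06), and *Ddit4*, an inhibitor of mTORC1, from 12.4 to 86.2 FPKM (2.70, adjusted p = 5.41e-06). *Kdm3a*, a histone demethylase, fell from 45.2 to 25.1 FPKM (-0.82, adjusted p = 2.97e-05). Loss of Trincr1 in PD + LIF raised 1 of the 21 and lowered 3, beside 6.29% of all genes higher and 5.77% lower. Among 14 other regulators of glycolysis genes, 6 rose and 2 fell with the medium in wild-type ESCs, beside 30.9% and 21.3% of all genes. In *Trincr1*-/- ESCs, 5 rose and 1 fell, beside 29.6% and 20.3%. Loss of Trincr1 raised 3 of the 14 and lowered 2 in PD + LIF, read against the same genotype shares. *Myc*, which activates many genes of the pathway, went there from a mean of 3.78 FPKM without the knockout to 9.63 FPKM with it (1.14, adjusted p = 0.00975), and *Txnip*, which restrains glucose uptake, went from 115 to 63.3 FPKM (-0.85, adjusted p = 0.00523).

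The core ACGTG of the hypoxia response element was searched on both strands of the promoters that RefSeq gives for these genes, 250 bases before to 50 after each start site in GRCm38.p6. The table held 54 promoters of 34 of the 35 genes. ACGTG stood in 22 of the 54 (40.7%) and in 19.6% of all 32851 promoters of that length. Some promoters of the same gene overlap, so 1 match can be counted more than 1 time. Counted by gene, 18 of the 34 had a match, beside 21.8% of 27025 genes. The 34 genes had 54 promoters and the 27025 genes 32851, so a listed gene had on average more promoters that could match. The promoters compared were not matched for base composition. ACGTG overlaps the E-box CACGTG, which stood in 6 of the 54 promoters (11.1%) and in 7.15% of all. ATCAAAG, a TCF/LEF-type motif, was in 0 of the 54 and in 3.73% of all. A match describes these letters and not a bound site. Of the genes with ACGTG, *Aldoa*, *Aldoc*, *Pfkfb3*, *Pfkm*, *Pgk1*, *Pkm*, *Slc2a1* and *Slc16a3* rose with the medium in both genotypes. *Hk1*, *Ldha* and *Pdk2* rose in 1 genotype. *Hk2*, *Pdhb* and *Slc16a1* fell in at least 1, and *Gapdh*, *Pdk3*, *Pfkfb2* and *Pgam1* were not called for the medium. *Pfkl*, *Pfkfb1*, *Tpi1*, *Bpgm*, *Eno1*, *Eno2* and *Eno3* rose in both genotypes without ACGTG. Whether ACGTG goes with the rise was not tested. The promoters of the 2 transporter genes with the largest medium changes and those of both lactate dehydrogenase genes are shown, with ACGTG on either strand in capitals. They are chr4:119108495-119108794, chr11:120948817-120949116, chr7:46845554-46845853 (all on the plus strand) and chr6:142507908-142508207 (on the minus strand).
Slc2a1: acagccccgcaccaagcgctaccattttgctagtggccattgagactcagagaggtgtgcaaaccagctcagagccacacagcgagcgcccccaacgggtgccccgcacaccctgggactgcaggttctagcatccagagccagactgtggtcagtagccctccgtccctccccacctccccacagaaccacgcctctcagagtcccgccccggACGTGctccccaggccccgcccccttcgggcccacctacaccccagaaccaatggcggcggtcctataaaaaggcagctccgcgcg
Slc16a3: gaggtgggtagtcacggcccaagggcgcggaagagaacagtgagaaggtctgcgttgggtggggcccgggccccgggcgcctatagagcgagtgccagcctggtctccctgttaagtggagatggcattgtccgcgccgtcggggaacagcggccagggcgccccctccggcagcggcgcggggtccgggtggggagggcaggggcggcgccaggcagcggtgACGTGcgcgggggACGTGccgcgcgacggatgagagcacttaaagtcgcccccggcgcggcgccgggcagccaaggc
Ldha: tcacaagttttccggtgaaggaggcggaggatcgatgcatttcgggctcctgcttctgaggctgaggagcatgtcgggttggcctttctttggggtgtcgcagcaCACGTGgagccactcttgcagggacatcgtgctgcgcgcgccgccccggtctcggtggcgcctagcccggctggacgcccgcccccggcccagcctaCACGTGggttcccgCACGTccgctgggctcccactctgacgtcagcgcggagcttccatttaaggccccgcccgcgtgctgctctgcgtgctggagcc
Ldhb: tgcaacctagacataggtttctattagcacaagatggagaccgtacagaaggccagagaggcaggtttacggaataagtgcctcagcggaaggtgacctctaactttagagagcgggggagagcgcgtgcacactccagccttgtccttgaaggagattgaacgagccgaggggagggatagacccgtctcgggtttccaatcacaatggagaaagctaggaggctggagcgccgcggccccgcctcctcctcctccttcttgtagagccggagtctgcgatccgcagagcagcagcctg
*Slc2a1* had 1 and *Slc16a3* 2 matches. *Ldha* had 5, counting each CACGTG on both strands, and a second promoter listed for it had 0. *Ldhb* had 0.

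The pulldown of FLAG-tagged TRIM71 listed 0 of these RNAs above the cutoff. In ESCs in 2i + LIF that overexpressed FLAG-tagged Trim71, RNA bound by it was set against the input. The labels give 2 samples each of input and IP, but each pair has 1 deposited value per transcript. No replicate check or test was therefore possible. A transcript was called at a ratio of scaled IP to input above 3 and an input above 2 FPKM, which 5.1% of 9651 transcripts passed. All 35 genes were listed, 34 of them had an input above 2 FPKM, and 0 of the 34 were called. *Hk2* came nearest, with an input of 37.5 FPKM and a scaled IP of 75.5 FPKM, a ratio of 2.01. It was followed by *Bpgm* at 1.65, *Pfkp* at 1.57, *Ldha* at 1.44 and *Slc2a1* at 1.03. These 5 were the genes with a ratio above 1, or 14.7% of the 34 beside 15.9% of all transcripts. Of the 34, 10, among them *Slc16a3* at an input of 6.4 FPKM and *Pdha1* at 49.9 FPKM, were listed at 0 in the unscaled IP, or 29.4% beside 46.4% of all. *Pdk1* had an input of 12.9 FPKM and an unscaled IP of 0.2 FPKM. The median ratio of the 34 was 0.211, beside 0.0571 over all transcripts. The most abundant genes were below a ratio of 1 and above that of the median transcript, with *Gapdh* at 0.165 and *Aldoa* at 0.412. The call depends on the scaling. When the top 100 transcripts of each library were left out of the mean used for scaling, *Hk2* (4.06), *Bpgm* (3.32) and *Pfkp* (3.17) were above 3, or 8.82% of the 34 beside 11.1% of all transcripts.

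**Figure D4:**
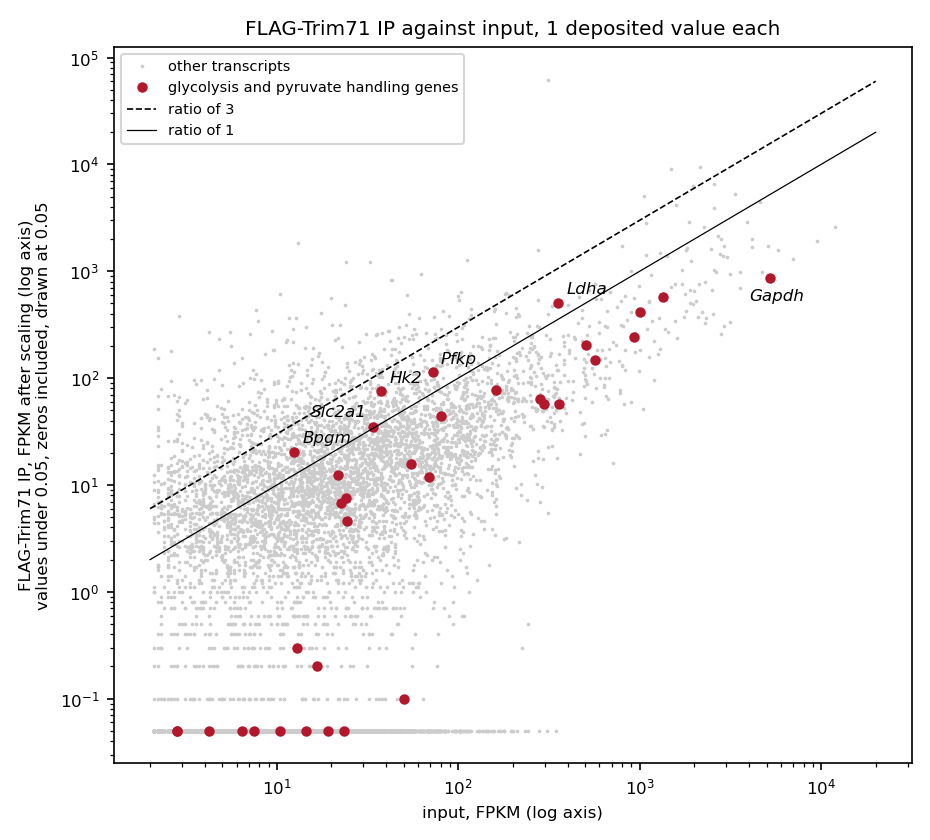
FPKM in the FLAG-Trim71 IP after scaling (y axis) against FPKM in the input (x axis), both log axes, for transcripts with an input above 2 FPKM. The 34 genes are in red, all lie below the dashed line at a ratio of 3, and *Hk2* lies closest to it.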

How the data were processed

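Poly(A) RNA of 8 samples was sequenced. The authors aligned the reads with STAR 2.5.0 and, with Cufflinks 2.2.1, deposited normalized FPKM per gene and sample. The methods name mm9, but both ends of 76.7% of 19929 genes lay within 1000 bases of their GRCm38 position, and of 4.95% of 33025 genes for NCBIM37, so coordinates are given as GRCm38. The pulldown table deposited by the authors has 1 FPKM value for the input and 1 for the IP of each transcript, and the same pair after their own scaling, treated as a signal. Their column of enrichment was not used, and the IP from cells without FLAG-Trim71 was not analysed here.

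The RNA-seq table held 41260 entries. For 39 identifiers with more than 1 entry the highest was kept. Genes with a mean above 0.2 FPKM (15430) were fitted with limma 3.58.1 in R 4.3.3 on log2(FPKM + 1), all 4 groups in 1 fit with 4 residual degrees of freedom, an intensity trend in the variance, and Benjamini-Hochberg adjustment over all genes at 0.05. A fold change on this scale understates the change of low genes. With 2 samples per group an exact permutation test cannot reach 0.05. On simulated data for the medium in wild type, 177 of 200 genes changed by 1 log2 unit were recovered, with 16 false calls. The simulation changed no low genes, altered 1 group only, and drew normal noise whose spread followed expression. In the data many more genes were called, some for much smaller changes, so these figures need not hold there. Isozyme shares and pulldown ratios were not tested. Near-identical copies were sought with BLAST 2.17.0 in NCBIM37. Replicate numbers did not pair the samples. Genes were named by this rule: each of the 35 genes is accounted for, in every sample where it was called in at least 1 of 5 comparisons, and of other lists at most 2 risen and 2 fallen genes are named per comparison. The 35 genes and the other lists were chosen with earlier results of these data known. Alternatives covered pseudocount, filter, scaling, variance model, a replicate block, the groups fitted and each library left out.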

Additional observations from a re-analysis of the deposited data

Results flagged for a closer look

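The effect of Trincr1 loss on *Slc2a1* differed between the media by 0.51 on the log2 scale, from 0.10 in 2i + LIF to 0.61 in PD + LIF (limma adjusted p = 0.0368, range over 16 alternatives 0.0275 to 0.138). For *Ldhb* the effects differed by -1.10, from 0.54 in 2i + LIF to -0.56 in PD + LIF (adjusted p = 0.0384, range 0.0279 to 0.1402). Both kept their direction under all 16 alternatives, and each call was kept under 5 of them.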

How the results depend on the processing

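The counts of genes called for the medium stayed within 1.5 times under every alternative, with 19 to 20 higher and 4 to 5 lower in wild-type and 16 to 18 higher and 4 to 5 lower in *Trincr1*-/- ESCs when 1 library was left out. Where that left 1 sample in a group, it was assumed to vary like the other groups. Genotype calls in PD + LIF (7 higher and 6 lower) became 3 and 2 without the variance trend, 1 and 0 with only the 2 groups compared, 3 lower without a filter, and 1 to 6 higher and 0 to 6 lower with 1 library left out. In 2i + LIF and for the difference between media (1 higher and 1 lower each), the counts were 0 without a filter, without the variance trend, with a replicate block and with any 1 library left out. They were also 0 in 2i + LIF with only the 2 groups compared, and 0 higher there under quantile normalization. *Gapdh* was called at 0.0797 for the medium in *Trincr1*-/- ESCs under quantile normalization, against -0.07 as reported. The cause was not tested. Replicate numbers are shared by name only: deviations of same-numbered samples correlated at -0.054 to 0.006, and a replicate block left 5 higher and 4 lower genotype calls in PD + LIF. In the pulldown, 3 of 34 genes passed when the top 100 transcripts were left out of the scaling mean, beside 11.1% of all transcripts, and 1 at a ratio above 2, beside 7.93%. Few fragments behind *Pgam2*, *Pfkfb4*, *Pdk2*, *Eno2* and *Mpc1* limit what could be detected.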
